A study of Mus musculus with 6 samples.

Results

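The cytochrome P450 genes (Cyp genes) of the mouse were taken as every symbol in the gene lists of 6 single-cell libraries that begins with Cyp, a family number, letters and a second number, with pseudogenes ending in -ps left out. Of the 25369 genes listed over the 6 libraries, 88 met this rule. A further 3 symbols, Cyp51, Cyp2c53-ps and Cyp4f41-ps, did not, while Cyp4x1os, an opposite-strand transcript of Cyp4x1 by its symbol, did. The libraries listed 79, 76 and 78 of the members in CWHM-12 1, 2 and 3, and 81, 80 and 75 in DMSO 1, 2 and 3.

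The libraries held dissociated liver cells of wild-type male mice whose inferior vena cava had been partly ligated (pIVCL), which obstructs the outflow of blood from the liver. Surgery was done at 8 to 10 weeks of age. After 2 weeks an osmotic pump under the skin began to deliver either CWHM-12, a small-molecule inhibitor of integrins with the αV chain, at 100 mg/kg/day (3 libraries), or its vehicle DMSO (3 libraries), and livers were taken 4 weeks later. Both groups carried the ligation, so no comparison below is with an unligated liver. Cells were mixed to a target of 90% nonparenchymal cells and 10% hepatocytes and were captured on the BD Rhapsody platform with whole-transcriptome amplification. The share of hepatocytes thus depends on this mixing, and the target was not met evenly. CWHM-12 1 held 2734 hepatocytes beside 6182 cells after the cell filters, and CWHM-12 2 held 267 beside 8447, these totals still including doublets. The labels name 2 batches: 2024.6, with CWHM-12 1, DMSO 1 and DMSO 2, and 2024.12, with CWHM-12 2, CWHM-12 3 and DMSO 3. They name no mouse, so p-values measure the spread between libraries, which may be technical.

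Cytochromes P450 are haem enzymes that insert oxygen into their substrates with electrons from P450 reductase (Por) in the endoplasmic reticulum or from ferredoxin in mitochondria. Members of the Cyp1, Cyp2 and Cyp3 families mostly oxidise drugs, toxins and steroids, those of the Cyp4 family hydroxylate fatty acids, Cyp7a1, Cyp7b1, Cyp8b1, Cyp27a1 and Cyp39a1 turn cholesterol into bile acids, and Cyp26 enzymes clear retinoic acid. The liver is their main site. Within the liver lobule, hepatocytes around the central vein are known to carry most of the drug-metabolising forms, under Wnt signals from the vein, and those around the portal tract carry fewer.

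The libraries held 28220477 to 48100436 UMIs over 10000 barcodes each, and 37982 cells remained after filters on genes, UMIs, mitochondrial share and doublets. Cells were clustered with all Cyp genes left out, and 31 of 38 clusters could be named by marker genes in 17 classes. The names below stand for cells like the named type by those markers. The hepatocyte-like class held 2734, 267 and 1905 cells in CWHM-12 1, 2 and 3, and 1446, 469 and 1728 in DMSO 1, 2 and 3. Any pair of libraries shared at most 5 barcodes. The hepatocytes of DMSO 2 stood apart: their gene levels correlated with those of the other libraries at a median Spearman coefficient of 0.764, against 0.911 to 0.940 for the other 5 libraries.

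In hepatocytes, 77 of the 88 members had at least 1 UMI. The 11 without one were Cyp11a1, Cyp11b1, Cyp11b2, Cyp24a1, Cyp27b1, Cyp2b13, Cyp2c65, Cyp2j13, Cyp3a41a, Cyp3a44 and Cyp4f37. They include the Cyp11 steroid enzymes and Cyp24a1 and Cyp27b1, the vitamin D enzymes of the kidney, and a count of 0 over all hepatocytes allows up to 0.168 CPM (UMIs of the gene scaled to 1000000 UMIs of the cells; 3 UMIs over the class). The filter on low counts left 51 members for testing, and 26 with UMIs were not tested, among them Cyp2a4, Cyp17a1, Cyp4f16 and Cyp2c40. A mean of 20 CPM was reached by 39 members and a mean of 100 CPM by 23.

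All Cyp members together took 0.899%, 1.22% and 1.01% of hepatocyte UMIs in CWHM-12 1, 2 and 3, and 1.25%, 1.99% and 0.907% in DMSO 1, 2 and 3. The widest of their exact (Clopper-Pearson) 95% intervals, in DMSO 2, ran from 1.96% to 2.02%, and such intervals cover counting error only. The groups overlapped, and DMSO 2 was highest. Some of these UMIs came from few cells: cluster 37 held 7 and 13 cells in CWHM-12 2 and 3, and 1, 3 and 1 in DMSO 1, 2 and 3, with 36.8%, 12.4%, 0.404%, 22.5% and 0.296% of the hepatocyte UMIs of these libraries. Its cells had a median of 48849 UMIs and led in genes of secreted proteins. Without it the Cyp share was 0.899%, 0.908% and 0.918% in CWHM-12 libraries, and 1.26%, 2.28% and 0.907% in DMSO libraries. The 5 most abundant members held 53.9% of Cyp UMIs: Cyp2e1, which oxidises ethanol and paracetamol, took 27.7%, and Cyp3a11, a broad drug and steroid oxidase, 11.03%. UMI levels are not set per length, so the order of genes is an order of UMIs.

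The drug-metabolising members led the list, and most varied severalfold between libraries of the same group. Cyp2e1 stood at 1993, 2777 and 3585 CPM in CWHM-12 1, 2 and 3, and at 3483, 3918 and 2722 CPM in DMSO 1, 2 and 3. Cyp3a11 stood at 865, 2747 and 1088 CPM in CWHM-12 libraries, and at 1401, 2329 and 929 CPM in DMSO libraries. Cyp2f2, which activates naphthalene, stood at 308, 1595 and 649 CPM in CWHM-12 libraries, and at 432, 867 and 606 CPM in DMSO libraries. For all 3 genes the groups overlapped, and CWHM-12 2 was the highest library for Cyp3a11 and Cyp2f2. That height came from the 7 cells of cluster 37: without it CWHM-12 2 stood at 905 CPM for Cyp3a11 and 381 CPM for Cyp2f2. Cyp3a25, a relative of Cyp3a11, stood at 679, 290.0 and 198 CPM in CWHM-12 libraries, and at 429.5, 2677 and 145 CPM in DMSO libraries, with DMSO 2 far above the rest. Cyp2d9, a testosterone hydroxylase that male livers make in excess, was the most even of the 5, at 477, 703 and 558 CPM in CWHM-12 libraries, and 633, 588 and 485 CPM in DMSO libraries.

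**Figure D1:**
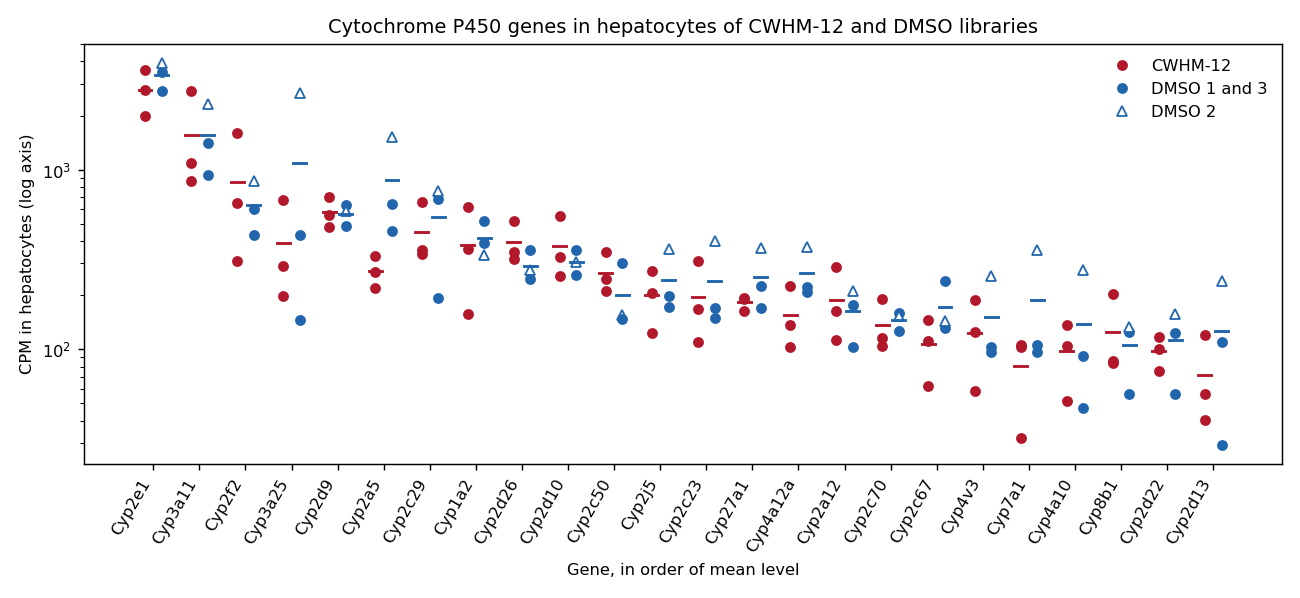
Level of the 24 most abundant Cyp members in hepatocytes (CPM, log axis) in each library, CWHM-12 to the left and DMSO to the right of each gene; points are libraries, the line is the group mean and the open triangle is DMSO 2. For Cyp2a5 the 3 CWHM-12 libraries (218 to 331 CPM) lie below the 3 DMSO libraries (454 to 1515 CPM), while for most other genes the groups overlap and DMSO 2 is often the highest point.

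The comparison of CWHM-12 with DMSO asks whether the integrin inhibitor changed P450 levels in hepatocytes of congested livers. None of the 51 members tested passed an adjusted p of 0.05 in edgeR's quasi-likelihood test with batch as a term, and none of all 10352 genes did (0% of the genes called). At an unadjusted p under 0.05 the test held 181 genes (1.75%), 7 of them members: Cyp2c67, Cyp2a5, Cyp20a1, Cyp4f17, Cyp39a1, Cyp26b1 and Cyp26a1. DESeq2 called 2 genes, Mt1 and Mt2, and no member.

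The log2 fold change was negative for 32 members and positive for 19, with a median of -0.23, against a median of 0.01 over all genes tested. This balance rested on single libraries: the median was 0.58 without CWHM-12 1 (14 of 50 members negative), -0.96 without DMSO 3 (46 of 50 negative) and 0.08 without DMSO 2 (23 of 55 negative). The 2 groups did not overlap for 3 members, each lower in CWHM-12, while 7.68% of all genes did not overlap, 3.13% lower and 4.55% higher in CWHM-12.

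Leaving out the 25 cells of cluster 37, a choice made after seeing the data, moved many members to lower values in CWHM-12. Again no gene was called, with 222 genes, 11 of them members, at an unadjusted p under 0.05 in edgeR's quasi-likelihood test. The estimate was negative for 39 of 50 members (median -0.43, against -0.05 over all genes). The groups did not overlap for 14 members, each lower in CWHM-12, while 5.22% of all genes were lower and 3.72% higher without overlap. The 14 were the drug and steroid oxidases Cyp2a5, Cyp2c68, Cyp2d9, Cyp2f2 and Cyp3a11, the lipid hydroxylases Cyp4a12a, Cyp4a12b and Cyp4v3, the arachidonate epoxygenases Cyp2c23 and Cyp2j5, the bile acid enzymes Cyp2c70, Cyp39a1 and Cyp7b1, and Cyp20a1.

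Cyp4a12a then stood at 106, 126 and 117 CPM in CWHM-12 1, 2 and 3, and at 236, 349 and 220.1 CPM in DMSO 1, 2 and 3 (log2 fold change -1.16, SE 0.35, unadjusted p = 0.00935, adjusted p = 0.992 in edgeR's test). Cyp3a11 stood at 891, 905 and 799.6 CPM in CWHM-12 libraries, and at 1492, 2600.2 and 993 CPM in DMSO libraries (-0.71, SE 0.47). Cyp2f2 stood at 318, 381 and 368 CPM in CWHM-12 libraries, and at 454, 432 and 640.2 CPM in DMSO libraries (-0.63, SE 0.33). For these 3 genes every CWHM-12 library lay below every DMSO library, and none passed the adjusted threshold. The values that follow include cluster 37 unless it is named.

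Cyp2a5, which hydroxylates coumarin and nicotine, was the first of the 3. It stood at 269, 218 and 331 CPM in CWHM-12 1, 2 and 3, and at 454, 1515 and 641 CPM in DMSO 1, 2 and 3. Every CWHM-12 library lay below every DMSO library. The means were 273 ± 56.3 CPM with CWHM-12 and 870.0 ± 566 CPM with DMSO (SD, n = 3 each), with a log2 fold change of -1.54 (SE 0.51, unadjusted p = 0.0134, adjusted p = 0.9998 in edgeR's quasi-likelihood test). Within batch 2024.6 the log2 difference was -1.62 and within 2024.12 it was -1.25. Without DMSO 2 the fold change was -1.01. Without the Malat1-rich clusters 14 and 28, described below, it was -1.23, from 84.5, 151 and 275 CPM in CWHM-12 libraries, and 196, 145 and 572 CPM in DMSO libraries, which then overlap. In clusters 14 and 28 alone it was -0.45. The last 500 bases of Cyp2a5 transcripts share 12.4% of their 50-base windows with another gene, with Cyp2a4 the closest, so some of its reads may belong to that copy.

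The other 2 members without overlap were scarce. Cyp39a1, an oxysterol hydroxylase of bile acid synthesis, stood at 6.07, 6.24 and 10.4 CPM in CWHM-12 libraries, and at 11.3, 19.7 and 15.4 CPM in DMSO libraries (log2 fold change -1.02, SE 0.41). Cyp20a1, an orphan P450 with no settled substrate, stood at 3.98, 4.68 and 3.73 CPM in CWHM-12 libraries, and at 12.2, 10.3 and 7.13 CPM in DMSO libraries (log2 fold change -1.19, SE 0.44). Both missed the adjusted threshold.

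Cyp2c67, of the Cyp2c drug and arachidonate oxidases, had the smallest unadjusted p among the members (0.00745, edgeR's quasi-likelihood test; adjusted p = 0.9998). It stood at 62.6, 111 and 146 CPM in CWHM-12 libraries, and at 130.3, 143 and 239 CPM in DMSO libraries, a log2 fold change of -1.01 (SE 0.30). The groups overlapped when pooled, but within each batch every CWHM-12 library lay below every DMSO library, with a log2 difference of -1.12 in 2024.6 and -0.91 in 2024.12. Its near copy Cyp2c68 stood at 30.7, 57.7 and 48.7 CPM in CWHM-12 libraries, and at 50.7, 70.2 and 65.3 CPM in DMSO libraries (log2 fold change -0.64, SE 0.32). Cyp2c67 and Cyp2c68 share 51.2% of the windows at their transcript ends with another Cyp2c gene, Cyp2c40 being the closest, so their separate values are uncertain. Cyp2c54 went the other way in its estimate, at 0.73 (SE 0.56), with 52.7, 51.4 and 96.1 CPM in CWHM-12 libraries, and 73.3, 63.7 and 20.3 CPM in DMSO libraries.

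The fatty acid hydroxylases of the Cyp4a group gave negative estimates that did not pass. Cyp4a12a, a male-biased form, stood at 103, 226 and 137 CPM in CWHM-12 libraries, and at 222, 373 and 207 CPM in DMSO libraries (log2 fold change -0.87, SE 0.45, unadjusted p = 0.0824 in edgeR's test). Its copy Cyp4a12b stood at 35.1, 96.7 and 64.4 CPM in CWHM-12 libraries, and at 72.9, 153 and 81.6 CPM in DMSO libraries (-0.86, SE 0.49). These copies share 37.03% of their end windows. Cyp4f15 gave a positive estimate of 0.62 (SE 0.50), with 90.1, 111 and 52.3 CPM in CWHM-12 libraries, and 74.2, 126 and 29.1 CPM in DMSO libraries.

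Among the bile acid enzymes, Cyp7a1, the rate-limiting enzyme of the classic pathway, stood at 103, 106 and 32.02 CPM in CWHM-12 libraries, and at 105, 358 and 97.0 CPM in DMSO libraries (log2 fold change -0.87, SE 0.57). Cyp7b1, which hydroxylates oxysterols in the alternative pathway, stood at 49.5, 67.0 and 48.5 CPM in CWHM-12 libraries, and at 61.6, 86.1 and 87.0 CPM in DMSO libraries (-0.59, SE 0.30, unadjusted p = 0.0779 in edgeR's test). Cyp1a2, which oxidises arylamines and caffeine, stood at 157, 360.1 and 618 CPM in CWHM-12 libraries, and at 391, 336 and 517 CPM in DMSO libraries (-0.64, SE 0.42). Each of these 3 genes had overlapping groups. Cyp2j9 stood at 24.9, 7.80 and 7.47 CPM in CWHM-12 libraries, and at 17.7, 133 and 11.4 CPM in DMSO libraries, a difference carried by DMSO 2.

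Both retinoic acid hydroxylases with enough UMIs gave positive estimates. Cyp26a1 stood at 41.4, 15.6 and 19.1 CPM in CWHM-12 1, 2 and 3, and at 19.9, 38.4 and 6.85 CPM in DMSO 1, 2 and 3, with a batch-adjusted log2 fold change of 0.91 (SE 0.39, unadjusted p = 0.0425 in edgeR's test). Cyp26b1 in hepatocytes stood at 2.85, 12.5 and 27.1 CPM in CWHM-12 libraries, and at 3.17, 0.936 and 3.71 CPM in DMSO libraries. This hepatocyte level was 0.889 times that expected from stray sinusoidal endothelial RNA, and whether any of it comes from hepatocytes was not tested.

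By function, no list of members held a called gene, and each is described by its signs. Of 7 bile acid enzymes tested, 2 had positive and 5 negative estimates (median -0.28). Of 8 male-biased members 2 were positive and 6 negative (median -0.58), of 6 female-biased members 2 were positive and 4 negative (median -0.17), and all 5 targets of the fatty acid receptor PPARα were negative (median -0.43). Of 11 targets of the drug receptors CAR and PXR, 7 were positive and 4 negative (median 0.44). Of 6 members of the Cyp4b, Cyp4f and Cyp4v subfamilies, 2 were positive and 4 negative (median -0.18). These medians carry no test and stand beside the 0.01 of all genes. Of the partners, none of 9 redox genes, 12 genes of haem synthesis and breakdown, 18 regulators or 26 conjugation and transport genes was called. Por stood at 114, 153 and 78.8 CPM in CWHM-12 libraries, and at 115, 92.7 and 119 CPM in DMSO libraries (log2 fold change 0.03, SE 0.34). Bcl6, a repressor of female-biased liver genes, had the smallest p of the regulators, with 71.7, 9.35 and 73.7 CPM in CWHM-12 libraries, and 10.4, 34.6 and 7.99 CPM in DMSO libraries (2.11, SE 0.67, unadjusted p = 0.0106 in edgeR's test).

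A set of hepatocytes stood apart by nuclear RNA. Clusters 14 and 28 carried much of the nuclear RNA Malat1, at 15951 ± 8001 CPM against 178 ± 40.04 CPM in clusters 5, 8, 9 and 10 (SD, n = 6 libraries), and Neat1, another nuclear RNA, at 853 CPM against 29.5 CPM. They made up 20.4%, 11.2% and 5.83% of hepatocytes in CWHM-12 1, 2 and 3, and 22.1%, 78.5% and 5.03% in DMSO 1, 2 and 3. Cluster 28 was nearly all DMSO 2, with 226 of its 228 cells. Clusters are taken from the same cells, so the values that follow are a description with no test.

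Members with 20 CPM or more on average over both sets numbered 42. Of these, 28 (66.7%) were higher in clusters 14 and 28 in 6 of 6 libraries, and 0 were lower in all 6. Of 6492 genes at that level, 34% were higher and 26.5% lower in all 6 libraries. The median ratio was 3.01 for the members and 1.27 for all genes. The widest gaps included Cyp2d13, at 517 ± 107 CPM in clusters 14 and 28 and 9.22 ± 4.76 CPM in the other clusters, and Cyp3a25, at 2509.9 ± 1076 CPM and 72.5 ± 10.9 CPM in the same order. Cyp26a1 stood at 112 ± 70.5 CPM in clusters 14 and 28 and 4.36 ± 2.83 CPM in the other clusters.

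Of the bile acid enzymes, Cyp7a1, Cyp27a1, Cyp8b1 and the scarce Cyp46a1 were higher in clusters 14 and 28 in 6 of 6 libraries. Cyp39a1 was higher there in 5 of 6 libraries. Cyp2c70 and Cyp7b1 were higher in 4 of 6, Cyp7b1 at 78.0 ± 49.6 CPM against 49.2 ± 21.2 CPM. Cyp7a1 stood at 579.9 ± 304 CPM in clusters 14 and 28 against 34.6 ± 15.1 CPM in the other clusters, Cyp27a1, a mitochondrial sterol hydroxylase, at 714 ± 138 CPM against 109.7 ± 21.4 CPM, and Cyp8b1, which shapes the make-up of bile acids, at 298 ± 91.8 CPM against 53.6 ± 6.63 CPM. The most abundant drug oxidases differed less than Cyp7a1, Cyp27a1 and Cyp8b1. Cyp3a11 stood at 2429 ± 795 CPM in clusters 14 and 28 and 936 ± 367 CPM in the other clusters, Cyp2e1 at 4388 ± 1349 CPM against 2807 ± 603 CPM, and Cyp2f2 at 457 ± 121 CPM against 391 ± 110.2 CPM. Albumin averaged 13003 ± 3802 CPM in clusters 14 and 28 and 18781 ± 5589 CPM in the other clusters, lower in 4 of 6 libraries and higher in CWHM-12 1 and DMSO 1. The high Cyp3a25, Cyp2j9 and Cyp7a1 of DMSO 2 stand beside its share of 78.5%. Without these clusters DMSO 2 stood at 29.1 CPM for Cyp7a1, and the other libraries at 18.3 to 52.9 CPM. For Cyp3a25 it stood at 242 CPM, still the highest, and the other libraries at 60.2 to 154 CPM. The log2 fold change between the groups was then -0.60 (SE 0.39) for Cyp7a1 and -0.20 (SE 0.68) for Cyp3a25. The part of that share in the group differences was not tested further.

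**Figure D2:**
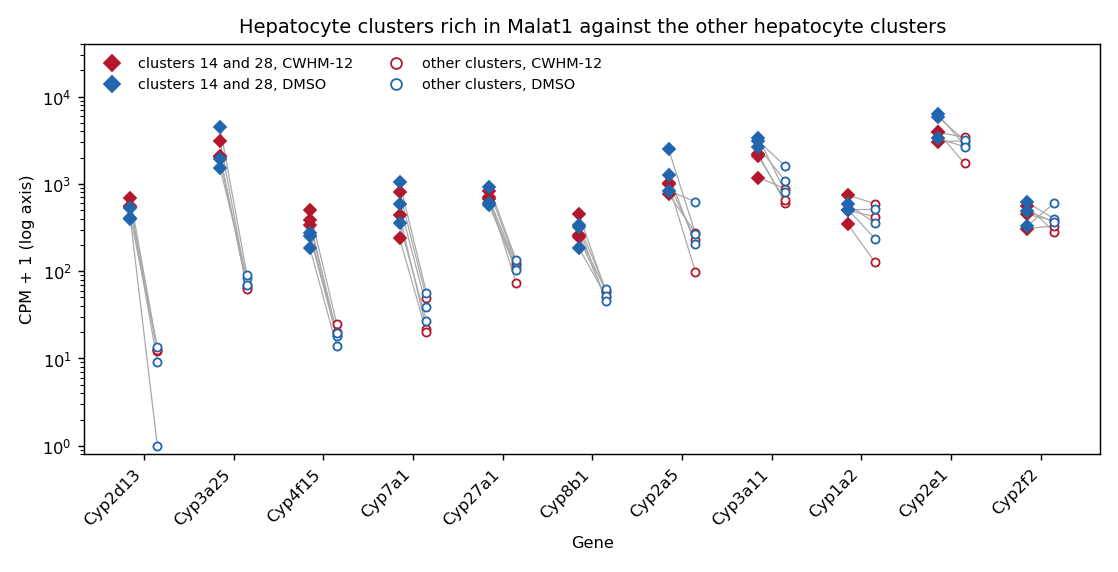
Level of 11 Cyp members (CPM plus 1, log axis) in hepatocyte clusters 14 and 28 (diamonds, left) and in clusters 5, 8, 9 and 10 (open circles, right); lines join the values of 1 library. Cyp2d13, Cyp3a25 and Cyp7a1 lie far higher in clusters 14 and 28 in 6 of 6 libraries, while Cyp2e1 is higher in 5 and Cyp2f2 in 4 of 6 libraries.

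Zonation was read by ordering the hepatocytes of each library by a score of 18 pericentral and 17 periportal genes, none of them a Cyp gene, and comparing the upper tercile (pericentral) with the lower tercile (periportal) within libraries. Of 42 members tested, 29 passed an adjusted p of 0.05 in edgeR's quasi-likelihood test, 16 higher and 13 lower in pericentral cells. Over all 7759 genes tested, 15.3% were called, 6.47% higher and 8.87% lower. The score orders cells along a continuous gradient, and 45.3% to 59.8% of the cells of a library lay near 1 of the cuts.

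To show where a Wnt motif lies, the RefSeq sequences of the 250 bases before the start sites are given for Cyp2e1 and Cyp1a2, the only pericentral members of the table whose window holds it, and for Cyp2f2, the steepest periportal member (build GRCm38.p6, 5′ to 3′ in the direction of the gene). Capitals mark matches to the Wnt effector motif of TCF/LEF factors, TTCAAAG, searched on both strands.
Cyp2e1, chr7:140763569-140763818, plus strand: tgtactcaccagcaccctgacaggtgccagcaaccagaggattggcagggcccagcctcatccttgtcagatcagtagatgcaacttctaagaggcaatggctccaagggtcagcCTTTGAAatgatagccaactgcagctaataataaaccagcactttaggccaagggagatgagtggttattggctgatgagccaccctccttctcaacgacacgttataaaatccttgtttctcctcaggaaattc
Cyp1a2, chr9:57683656-57683905, minus strand: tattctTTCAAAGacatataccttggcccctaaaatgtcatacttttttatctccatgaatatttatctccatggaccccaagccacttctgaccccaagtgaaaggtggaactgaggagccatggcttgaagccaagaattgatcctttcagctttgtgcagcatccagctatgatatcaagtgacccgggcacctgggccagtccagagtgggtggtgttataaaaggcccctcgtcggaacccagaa
Cyp2f2, chr7:27119705-27119954, plus strand: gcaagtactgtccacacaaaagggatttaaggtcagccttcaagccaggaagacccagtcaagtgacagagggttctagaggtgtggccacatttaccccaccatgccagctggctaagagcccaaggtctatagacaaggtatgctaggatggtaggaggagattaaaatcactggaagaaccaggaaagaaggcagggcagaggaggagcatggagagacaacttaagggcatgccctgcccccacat
The Cyp2e1 match is on the minus strand, as CTTTGAA, with 128 bases between it and the start, and 237 bases separate the Cyp1a2 match from its start. The Cyp2f2 window holds none. In the RefSeq table, 65 of the 88 members have a promoter, and TTCAAAG occurs in 2 of 12 pericentral members, in 1 of 10 periportal members (Cyp3a13), in 0 of 9 members tested and not called, and in 5.19% of the 27025 promoters in all. The motif CAAAGTCCA of the liver factor HNF4A occurs in 10 of 65 members (15.4%) and in 0.451% of all promoters, but 6 of these 10 are neighbouring copies of the Cyp2c family. Of the rest, Cyp3a11, Cyp3a16 and Cyp3a41a are relatives within the Cyp3a family, so the matches are not independent. A match describes the letters and is not a shown site.

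Drug oxidases led the pericentral side. Cyp2e1 stood at 3433, 7815 and 8066 CPM in pericentral cells of CWHM-12 1, 2 and 3 and at 5091, 7402 and 6471 CPM in those of DMSO 1, 2 and 3. In periportal cells it stood at 687, 219.8 and 219 CPM in CWHM-12 libraries and 2118, 1324 and 145 CPM in DMSO libraries. Every pericentral value lay above every periportal one, which holds for 2.53% of all genes in either direction, with a log2 fold change of 3.60 (SE 0.45, adjusted p = 3.77e-06 in edgeR's test), and the middle tercile lay between, at 3457 CPM against 6491 CPM pericentral and 799 CPM periportal on that scale. Cyp1a2 averaged 816 ± 372 CPM in pericentral and 111 ± 76.5 CPM in periportal cells (SD, n = 6; log2 fold change 2.87, SE 0.28).

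Cyp2a5 averaged 1261 ± 1323 CPM in pericentral and 102 ± 111 CPM in periportal cells (3.79, SE 0.34), its wide spread coming from DMSO 2 at 3949 CPM pericentral. The widest fold change was that of Cyp2c38, at 126 ± 39.1 CPM in pericentral and 8.01 ± 9.40 CPM in periportal cells (4.33, SE 0.30, adjusted p = 1.19e-09 in edgeR's test). It was followed within its family by Cyp2c29 (3.33, SE 0.38; 1019 ± 436 CPM against 146 ± 169 CPM), Cyp2c37 (3.04, SE 0.33), Cyp2c50 (3.03, SE 0.26), Cyp2c54 (2.39, SE 0.29), Cyp2c67 (1.88, SE 0.16) and Cyp2c68 (1.27, SE 0.19). All 7 of these Cyp2c genes were higher in pericentral cells in 6 of 6 libraries. Cyp2c37, Cyp2c50 and Cyp2c54 share 30.4%, 27.5% and 27.1% of their transcript-end windows with another gene, so the family's shift is firmer than the share of each copy.

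Bile acid enzymes lay on both sides. Cyp7a1 averaged 295 ± 295 CPM in pericentral and 43.7 ± 28.9 CPM in periportal cells (log2 fold change 2.70, SE 0.26), and was higher in 6 of 6 libraries. Cyp27a1 (0.64, SE 0.16) and Cyp8b1 (0.70, SE 0.21) were also called pericentral, but in 5 and 4 of 6 libraries only. Cyp2c70, which makes the muricholic acids of mice, was lower in pericentral cells (-0.54, SE 0.12; 122 ± 43.4 CPM against 180.4 ± 63.5 CPM). Cyp7b1 did not pass (-0.31, SE 0.15, adjusted p = 0.207 in edgeR's test). Of the fatty acid hydroxylases, Cyp4a14 (1.49, SE 0.21) and Cyp4a10 (1.40, SE 0.19) were pericentral, and Cyp4a12a did not pass, at 242 ± 114 CPM in pericentral and 238 ± 134 CPM in periportal cells.

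Cyp2f2 led the periportal side. It stood at 87.5, 41.0 and 42.2 CPM in pericentral cells of CWHM-12 1, 2 and 3 and at 173, 81.4 and 70.7 CPM in those of DMSO 1, 2 and 3. In periportal cells it stood at 598, 3194 and 1386 CPM in CWHM-12 libraries and 878, 2044 and 1036 CPM in DMSO libraries, again without overlap (-3.88, SE 0.31, adjusted p = 5.26e-09 in edgeR's test). Without cluster 37 the periportal values were 636, 779.6 and 747 CPM in CWHM-12 libraries and 912, 981 and 1092 CPM in DMSO libraries, and the fold change was -3.29 (SE 0.18). The other 12 periportal members were less steep, and with cluster 37 included all 13 were lower in pericentral cells in 6 of 6 libraries. Without it, Cyp2c23, Cyp2d10, Cyp2d22 and Cyp4f14 were higher in pericentral cells of CWHM-12 2. So were Cyp2c23 in DMSO 2 and Cyp2c70 in CWHM-12 3. The fold change of Cyp2c23 was then -0.40 (SE 0.13) and that of Cyp2d26 -0.86 (SE 0.14).

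Cyp2a12 averaged 67.9 ± 19.003 CPM in pericentral and 295 ± 157 CPM in periportal cells (-1.68, SE 0.22). Cyp4v3, the mouse form of a fatty acid hydroxylase mutated in a human eye disease, averaged 63.7 ± 19.5 CPM and 238 ± 157 CPM in the same order (-1.64, SE 0.15). Cyp2a12 thus lay opposite to its relative Cyp2a5. Cyp2d26 followed at -1.29 (SE 0.17), Cyp3a13 at -0.94 (SE 0.15), Cyp2c23 at -0.83 (SE 0.12), Cyp2j5 at -0.73 (SE 0.12), Cyp2d10 at -0.67 (SE 0.13) and Cyp4f14 at -0.58 (SE 0.13). Cyp2c23 and Cyp2j5 make epoxides of arachidonic acid. The called Cyp4b1 (-0.96) is scarce in hepatocytes, at 1.00 times the level expected from stray endothelial RNA.

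Among the abundant members Cyp3a11, Cyp3a25 and Cyp2d9 showed no call in either direction. Cyp3a11 averaged 1603 ± 809 CPM in pericentral and 1894 ± 1374 CPM in periportal cells (log2 fold change -0.08, SE 0.17), Cyp3a25 differed by -0.12 (SE 0.16) and Cyp2d9 by -0.19 (SE 0.12). Cyp26a1 did not pass either, at 27.1 ± 14.9 CPM in pericentral and 19.6 ± 13.3 CPM in periportal cells (0.44, SE 0.23).

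**Figure D3:**
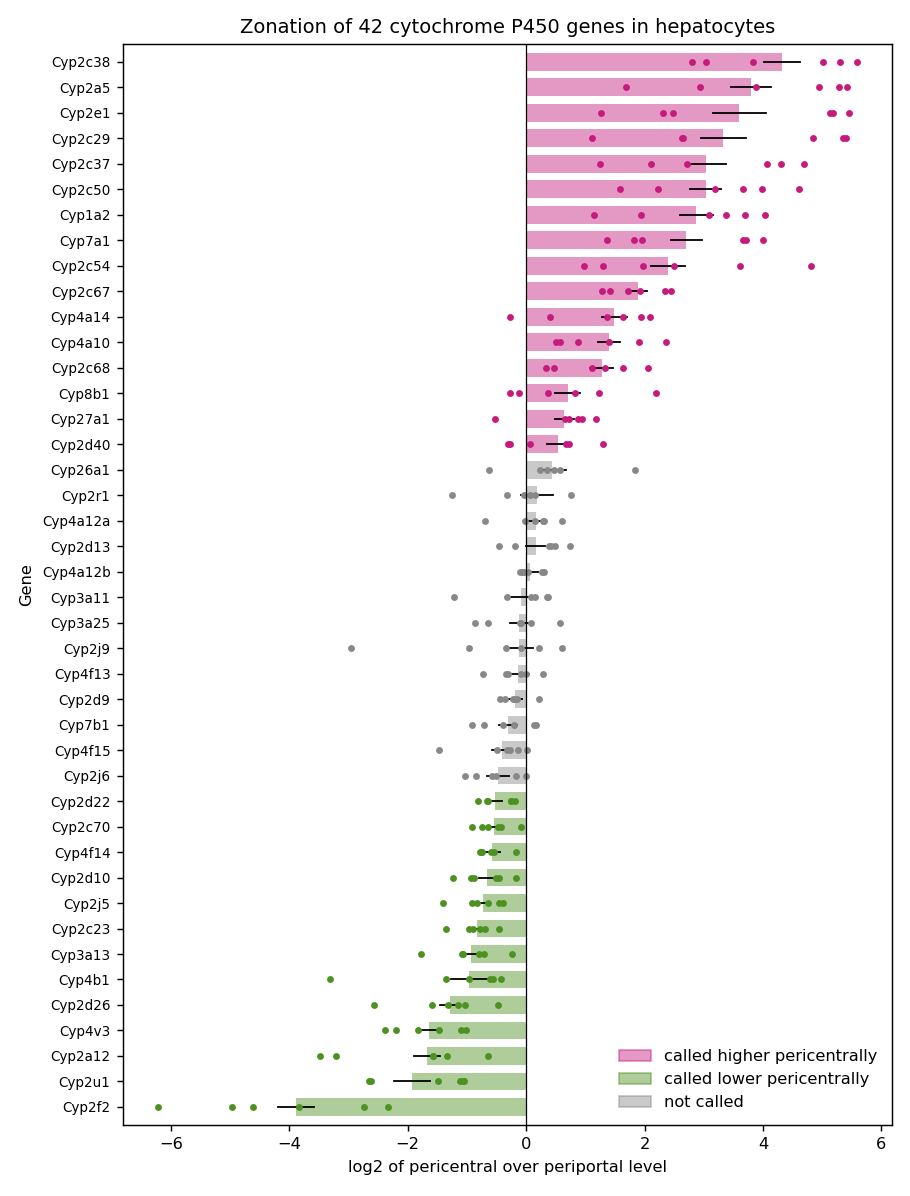
Log2 fold change of pericentral over periportal hepatocytes for the 42 Cyp members tested; bars are edgeR's estimates, lines their standard errors and points the 6 libraries. The bars run from 4.33 for Cyp2c38 to -3.88 for Cyp2f2, and Cyp3a11 and Cyp2d9 lie near 0.

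Clusters 14 and 28 were not spread evenly over the zones. They made up 16.6%, 11.2% and 6.46% of pericentral cells in CWHM-12 1, 2 and 3 against 25.4%, 13.5% and 3.47% of periportal cells, and 13.3%, 70.5% and 7.64% of pericentral cells in DMSO 1, 2 and 3 against 31.7%, 83.3% and 3.82% of periportal cells. Without them, 24 of the 29 calls were kept, Cyp2c70, Cyp2d40, Cyp2u1, Cyp4b1 and Cyp8b1 being lost. Without cluster 37, 26 were kept, Cyp2d10, Cyp2d22 and Cyp4f14 being lost, and Cyp4a12a was called pericentral (0.53, SE 0.12, adjusted p = 0.00189 in edgeR's test). With cluster 37 included, the zones also differed in secretory genes. Of 20 genes of abundant plasma proteins, which enter neither list, 17 were lower in pericentral cells. Haemopexin (Hpx) was the clearest, at 290.3 ± 114 CPM in pericentral and 1543 ± 1103 CPM in periportal cells. Cluster 37 led in genes of secreted proteins, and its part in this difference was not tested.

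Of the lists of members, 5 of 8 tested targets of CAR and PXR were pericentral and 1 periportal, 3 of 4 female-biased members were pericentral and 0 periportal, 3 of 8 male-biased members were pericentral and 1 periportal, and of 5 members of the Cyp4b, Cyp4f and Cyp4v subfamilies Cyp4b1, Cyp4f14 and Cyp4v3 were periportal and 0 pericentral. Among 17 regulators, 2 were pericentral: the drug receptor gene Nr1i3 (CAR), at 345 ± 165 CPM in pericentral and 93.1 ± 51.8 CPM in periportal cells (1.95, SE 0.18), and Ahr, which controls Cyp1 genes, at 137 ± 72.9 CPM in pericentral and 30.1 ± 18.6 CPM in periportal cells (2.25, SE 0.21). The electron donors lay on both sides. Cyb5b (0.97, SE 0.11) and Cyb5a (0.79, SE 0.15), the cytochromes b5, and Fdx1 (0.52, SE 0.11), the ferredoxin of mitochondrial P450s, were pericentral, Pgrmc1 and Pgrmc2 periportal, and Por did not pass (0.45, adjusted p = 0.0606 in edgeR's test). Of 12 haem genes, 4 were pericentral, among them the synthesis enzymes Cpox (1.14, SE 0.11) and Alad (0.99, SE 0.12), and 0 periportal.

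The zonation of the members was not shown to differ between CWHM-12 and DMSO. The interaction of zone and treatment called 0 of 42 members and 0 of 7759 genes (0%) in edgeR's quasi-likelihood test, with 142 genes (1.83%) at an unadjusted p under 0.05. Of these, 4 were members, all of them Cyp2c genes with a wider pericentral excess in the CWHM-12 libraries: Cyp2c67 (interaction 0.93 on the log2 scale, SE 0.28, unadjusted p = 0.00369), Cyp2c54 (0.99, SE 0.41), Cyp2c38 (1.14, SE 0.52) and Cyp2c37 (0.92, SE 0.43). Cyp7b1 was next (0.57, SE 0.30), and the adjusted p of each of the 5 was 0.9997. For Cyp2c67 the pericentral values were 114, 246 and 255 CPM in CWHM-12 libraries, and 212, 237 and 367 CPM in DMSO libraries, and the periportal ones 20.9, 63.3 and 44.95 CPM with CWHM-12, and 86.2, 70.7 and 137 CPM with DMSO. The periportal groups did not overlap, and the pericentral groups did. Without CWHM-12 1 the interaction of Cyp2c37 turned to -0.52. Leaving out cluster 37 again called no member, but low unadjusted p-values were then not confined to Cyp2c genes. Cyp2c67 stood at 1.15 (SE 0.27, unadjusted p = 6.43e-05 in edgeR's test). Beside all 4 Cyp2c genes, Cyp2d9 (0.65, SE 0.21), Cyp2d26, Cyp27a1, Cyp3a11, Cyp4f15, Cyp2a12 and Cyp4a12a had an unadjusted p under 0.05. Each of these interactions was positive. The share of all genes at that threshold in this fit was not counted, so no excess among the members is claimed.

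Outside hepatocytes, 51 members were tested in 13 nonparenchymal classes. A class was called a site of a member when the member was higher there than in the other nonparenchymal classes and higher than in hepatocytes, both at an adjusted p of 0.05. This held for 31 pairs of member and class, from 11 members, against 69.6% of 12793 genes with a site in any class. Of the 51 members, 37 had a higher mean in hepatocytes than in every other class. Free RNA from broken cells reaches all droplets, so several levels are given beside that expected from the source's RNA in that class. The sites of Cyp2s1, Cyp2j6, Cyp39a1, Cyp4f16, Cyp4f18 and Cyp2ab1, and the mesothelial site of Cyp1b1, are given without one.

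The sinusoidal endothelium was the chief site of Cyp4b1, which oxidises fatty acids and plant toxins (21.9% of all genes had this class as a site). It averaged 1129 ± 194 CPM there (SD, n = 6, range 931 to 1414) against 21.6 ± 5.66 CPM in hepatocytes. Vascular endothelium followed at 721 ± 273 CPM (20% of all genes) and stellate cells at 249 ± 119.9 CPM (23.1% of all genes). Both of these classes held RNA of sinusoidal marker genes, and their Cyp4b1 was 1.13 and 1.14 times the level expected from it. That expected level is too high where a class makes these markers itself, which was not tested. Cyp1a1, the inducible oxidase of polycyclic aromatics, was in vascular endothelium at 115 ± 75.8 CPM, with 38.9, 118 and 211 CPM in CWHM-12 1, 2 and 3 and 109.8, 188 and 23.6 CPM in DMSO 1, 2 and 3, against 1.59 CPM in hepatocytes. In sinusoidal endothelium it reached 0.21 times the level expected from vascular RNA, and in hepatocytes 1.08 times.

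Cyp1b1, an oestradiol hydroxylase, shared this site, at 42.8 ± 16.1 CPM in vascular endothelium against 0.448 CPM in hepatocytes. It was also called in mesothelial cells from 15 UMIs and in stellate cells at 1.78 CPM, which is 0.284 times the level expected from vascular RNA. Cyp20a1 was highest in stellate cells, at 192 ± 18.1 CPM (177 to 223), against 60.9 ± 4.91 CPM in vascular and 54.5 ± 4.62 CPM in sinusoidal endothelium and 8.97 CPM in hepatocytes. Its endothelial levels were 97.0 and 106 times those expected from stellate RNA. Every library lay near the class mean.

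Mesothelial cells and cholangiocytes were sites of Cyp2s1, Cyp2j6 and Cyp39a1, beside the Cyp1b1 call above. In mesothelial cells Cyp2s1, an epithelial P450, averaged 314 ± 83.7 CPM (n = 5 libraries; 18.4% of all genes had this site) against 0.24 CPM in hepatocytes. Lower sites of Cyp2s1 were type 1 dendritic cells (13.1 CPM), cholangiocytes (12.8 CPM) and T cells (6.69 CPM; 21% of all genes). In cholangiocytes (18.1% of all genes) Cyp2j6, an arachidonic acid oxidase, averaged 125 ± 29.9 CPM against 48.1 ± 42.6 CPM in hepatocytes, and Cyp39a1 averaged 47.9 ± 11.7 CPM against 14.9 ± 6.93 CPM. DMSO 2 was the highest library for Cyp2j6 in both classes.

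Blood-derived cells held members of the Cyp4f family and Cyp2ab1. The class of monocytes and macrophages is cluster 18, with a mean marker score of 2.5 for that type and 1.607 for type 2 dendritic cells. Its leading genes include Cd209a and Mgl2, markers of type 2 dendritic cells, so levels in this class may include such cells. Cyp4f18, which breaks down the chemoattractant leukotriene B4 in mouse neutrophils, averaged 139 ± 75.1 CPM in neutrophils (n = 4; 11.8% of all genes had this site), 124 ± 46.1 CPM in B cells (21.4%) and 96.1 ± 56.4 CPM in monocytes and macrophages (17.5%), against 1.04 CPM in hepatocytes. Plasmacytoid dendritic cells and Kupffer cells were lower sites, at 19.4 CPM and 13.7 CPM. In B cells it stood at 165, 148 and 123 CPM in CWHM-12 1, 2 and 3, and at 143, 34.8 and 129.98 CPM in DMSO 1, 2 and 3, and DMSO 2 was the lowest library in all 5 of these classes. Cyp4f16 was highest in monocytes and macrophages, at 105 ± 25.5 CPM against 3.31 CPM in hepatocytes, followed by Kupffer cells (25.1 CPM; 23.6% of all genes), plasmacytoid dendritic cells (23.5 CPM) and NK cells or ILC1 (18.6 CPM, with CWHM-12 1 at 54.2 CPM and the other libraries at 6.397 to 19.9 CPM). The call in plasmacytoid dendritic cells was lost in 7 and that in NK cells or ILC1 in 4 of 11 alternative settings. Cyp2ab1 averaged 23.5 ± 4.99 CPM in monocytes and macrophages from 66 UMIs, and its calls in vascular endothelium and NK cells or ILC1 rest on 15 and 2 UMIs.

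Several hepatocyte members stood above hepatocyte RNA in other classes without being called higher there than in hepatocytes. Cyp27a1 averaged 122 ± 48.2 CPM in type 1 dendritic cells, 91.4 ± 19.9 CPM in monocytes and macrophages and 80.0 ± 15.2 CPM in Kupffer cells, against 279 ± 94.9 CPM in hepatocytes. The Kupffer level was 8.30 times that expected from hepatocyte RNA. Cyp2d22 averaged 152 ± 29.8 CPM in sinusoidal endothelium, 46.6 times the expected level, beside 134 ± 43.9 CPM in hepatocytes. In cholangiocytes Cyp2d22, Cyp4f14 and Cyp2j5 averaged 140 ± 10.1, 85.6 ± 16.7 and 81.3 ± 26.04 CPM, 16.6, 12.2 and 4.90 times the level expected from hepatocyte RNA.

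**Figure D4:**
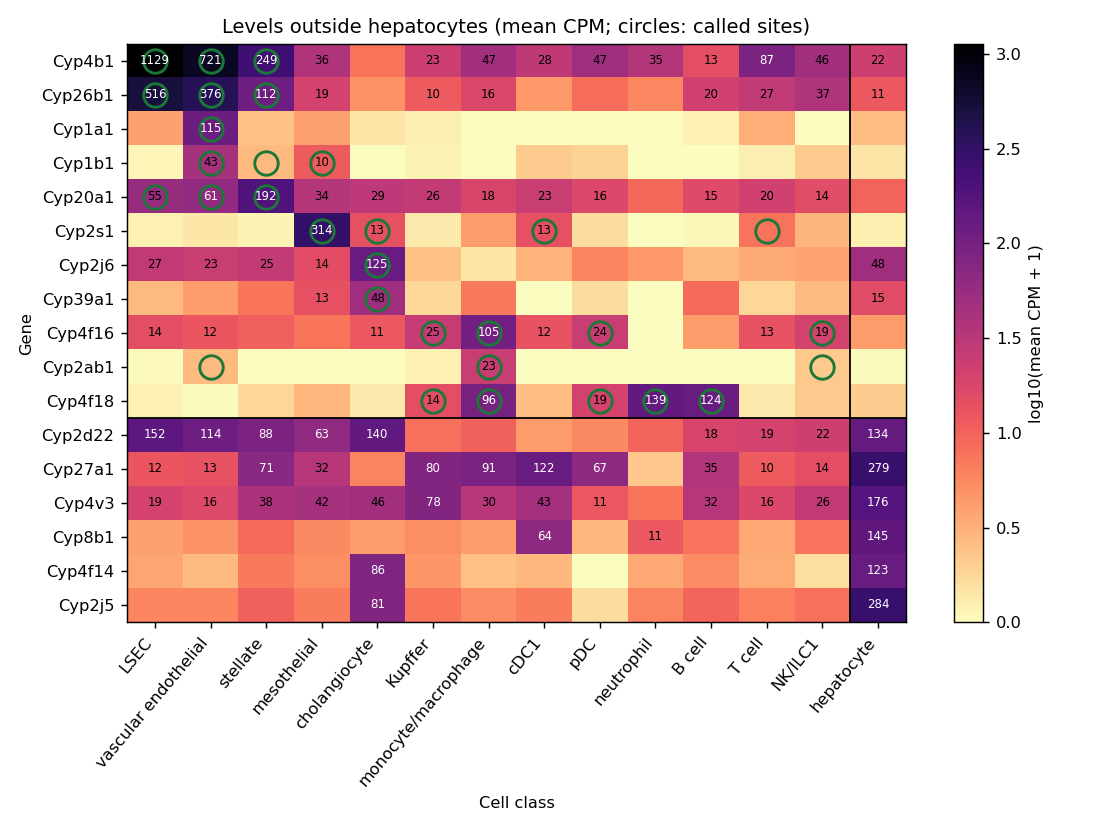
Mean level of Cyp members by cell class (colour, log10 of CPM plus 1); green circles mark the 31 called pairs of member and class, and hepatocytes are the last column. The circles fall on 11 members, with Cyp4b1 and Cyp26b1 in the endothelial columns, Cyp2s1 in mesothelial cells and Cyp4f18 in white blood cells.

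Cyp26b1, which breaks down retinoic acid, had its highest levels in endothelium. On the scale of the class comparison it stood at 276, 437 and 1792 CPM in sinusoidal endothelium of CWHM-12 1, 2 and 3, and at 121, 85.3 and 384 CPM in DMSO 1, 2 and 3. The mean was 516 ± 640.5 CPM against 11.1 ± 13.96 CPM in hepatocytes. Vascular endothelium held 317, 338 and 955 CPM in CWHM-12 libraries and 146, 133 and 368 CPM in DMSO libraries, which is 1.64 times the level expected from sinusoidal RNA and above it in 6 of 6 libraries. Stellate cells, at 112 ± 145 CPM, and Kupffer cells were at 1.02 and 0.944 times that expectation. CWHM-12 3 was the highest library in each of the 3 called classes.

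For this gene and for Cyp26a1, the retinoic acid hydroxylase found in hepatocytes here, the 250 bases before the start are given as above. Capitals mark a match to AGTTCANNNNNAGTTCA, the direct repeat with 5 bases between its copies that retinoic acid receptors bind, searched on both strands.
Cyp26a1, chr19:37697558-37697807, plus strand: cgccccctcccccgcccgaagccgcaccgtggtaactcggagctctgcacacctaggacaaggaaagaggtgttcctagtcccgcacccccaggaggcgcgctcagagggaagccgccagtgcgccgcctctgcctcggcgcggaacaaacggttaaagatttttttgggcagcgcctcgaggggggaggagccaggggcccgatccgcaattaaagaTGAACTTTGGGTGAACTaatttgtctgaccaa
Cyp26b1, chr6:84593811-84594060, minus strand: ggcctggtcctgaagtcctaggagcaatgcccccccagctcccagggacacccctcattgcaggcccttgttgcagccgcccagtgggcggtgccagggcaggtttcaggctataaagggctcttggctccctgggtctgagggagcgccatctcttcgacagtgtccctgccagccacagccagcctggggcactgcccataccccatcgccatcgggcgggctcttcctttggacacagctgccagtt
The Cyp26a1 match lies on the minus strand, with 15 bases between it and the start, and Cyp26a1 is the only one of the 65 members with a match, while 7 of 27025 promoters (0.0259%) hold one. The Cyp26b1 window holds no match to these letters. Other forms of the repeat were not searched, so the counts do not show which promoters lack one.

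No member passed the adjusted threshold between CWHM-12 and DMSO in any of the 13 other classes tested in edgeR's quasi-likelihood test (0% of all genes were called in 11 classes, 0.0171% in mesothelial cells and 0.225% in NK cells or ILC1), nor in DESeq2. At an unadjusted p under 0.05 there were Cyp26b1 and Cyp4a12b in sinusoidal endothelium, Cyp26b1 in vascular endothelium and T cells, Cyp2a5 in T cells, Cyp2f2 and Cyp39a1 in stellate cells, Cyp4b1 in mesothelial cells and Cyp2e1 in monocytes and macrophages. Of these, Cyp2a5, Cyp2e1, Cyp2f2 and Cyp4a12b are higher in hepatocytes than in the class named. Leaving out CWHM-12 3 or DMSO 2 led to calls of Cyp26b1 and Cyp4b1 in NK cells or ILC1, and leaving out DMSO 1 to a call of Cyp4b1 in mesothelial cells. The class of NK cells or ILC1 held 28 to 81 cells per library. Both genes are highest in sinusoidal endothelium, and the part of stray endothelial RNA in these calls was not tested.

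Cyp26b1 had the widest group difference among the endothelial values. In the sinusoidal endothelium, scaled for this test, it stood at 273, 429 and 1768 CPM in CWHM-12 1, 2 and 3, and at 119.9, 77.9 and 378 CPM in DMSO 1, 2 and 3. The means were 823 ± 822 CPM with CWHM-12 and 192 ± 163 CPM with DMSO (SD, n = 3 each). The log2 fold change was 1.499 (SE 0.53, unadjusted p = 0.0282, adjusted p = 0.997 in edgeR's test). The groups overlapped when pooled, but within each batch every CWHM-12 library lay above every DMSO library, by 1.49 on the log2 scale in 2024.6 and 1.20 in 2024.12. Leaving out CWHM-12 3 gave 0.93. Both groups were higher in batch 2024.12.

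Vascular endothelium gave 337, 355 and 1029.6 CPM in CWHM-12 1, 2 and 3, and 154, 133 and 380.4 CPM in DMSO 1, 2 and 3 (log2 fold change 1.04, SE 0.39, unadjusted p = 0.0293, adjusted p = 0.999 in edgeR's test), and the groups overlapped in batch 2024.12. Leaving out CWHM-12 3 gave 0.67 here. Sinusoidal marker genes stood in this class at 36.4% to 74.2% of their sinusoidal level (median over the markers). How much of this is stray RNA and how much the class's own was not tested. The 2 comparisons therefore cannot be taken as independent. In stellate cells the estimate was 0.89 (SE 1.00) and in Kupffer cells 0.63 (SE 0.49).

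Sinusoidal clusters were present in unequal shares, and Cyp26b1 differed between them. Cluster 2, the lowest in Cyp26b1, made up 64.4%, 23.7% and 5.65% of sinusoidal cells in CWHM-12 1, 2 and 3, and 71.6%, 63.1% and 51.7% in DMSO 1, 2 and 3. Within cluster 2 the level was 178, 171 and 690.0 CPM in CWHM-12 libraries, and 69.2, 37.6 and 215 CPM in DMSO libraries. In cluster 1 it was 595, 397 and 1453 CPM in CWHM-12 libraries, and 152, 104 and 539 CPM in DMSO libraries. In cluster 7 it was 454, 842 and 1847 CPM in CWHM-12 libraries, and 360.3, 214 and 719.9 CPM in DMSO libraries. In each of the 3 clusters the CWHM-12 libraries lay above the DMSO libraries of their own batch, except for CWHM-12 2 in clusters 1 and 2. The other endothelial member behaved differently in its estimate: Cyp4b1 stood at 1159.6, 1007 and 936 CPM in CWHM-12 libraries, and at 919, 1289.9 and 1262 CPM in DMSO libraries (log2 fold change -0.15, SE 0.20).

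**Figure D5:**
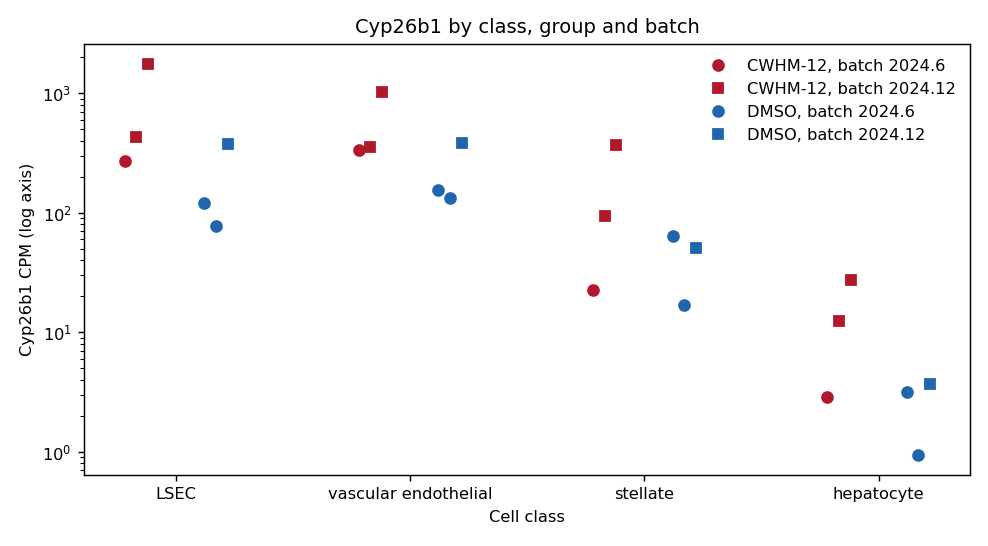
Cyp26b1 level (CPM, log axis) per library in 4 cell classes, CWHM-12 to the left of DMSO; circles are batch 2024.6 and squares batch 2024.12. In sinusoidal and vascular endothelium CWHM-12 3 is the highest library (1768 and 1029.6 CPM), and both groups reach higher in batch 2024.12.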

How the data were processed

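Liver cells of 3 CWHM-12 and 3 DMSO libraries were measured by single-cell RNA sequencing. The authors deposited 1 matrix of UMI counts per gene and cell barcode for each library, with no normalization. The reads were assigned on genome build GRCm39, per the submitters' processing notes, and for the aligner and counter: not given in the sources used here. No column of per-sample values was left aside.

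Cells with at least 300 genes and 500 UMIs and at most 30% mitochondrial UMIs were kept (38697). Doublets were scored with Scrublet within scanpy 1.11.5. Its automatic threshold marked 0.0372% to 1.09% of cells per library, so cells scored above 0.25 were removed instead (715 cells). Cells were clustered without Cyp genes (2000 variable genes, 40 components, 20 neighbours, leidenalg 0.10.2 at resolution 1.5, igraph 0.11.9). Clusters were named from marker genes, and 7 of 38 clusters (3270 cells) remained unnamed. Raw counts were summed per library and class (at least 20 cells) and tested with edgeR 4.0.16 (R 4.3.3, limma 3.58.1), with filterByExpr, TMM and Benjamini-Hochberg adjustment over all genes. Treatment fits had batch as a term and zone and site fits had library as a block. CPM are counts scaled to 1000000 UMIs with TMM, so they differ slightly between fits. The level expected from stray hepatocyte RNA came from 20 hepatocyte genes, and that from other classes from their marker genes. It counts all marker RNA in a class as stray, so it can be too high where the class makes the markers itself. The fits were tested on simulated data. Alternatives included DESeq2 1.42.0, voom, other filters and cuts, thinning to 1000 UMIs per cell, and leaving out each library.

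The members and gene lists were chosen with earlier results of these data known. Every member may be named with its level. Full statistics were given to called members of at least 20 CPM, and where fewer than 5 were called in hepatocytes to the 12 of smallest p, in zonation to the 10 widest in each direction, in the interaction to the 5 of smallest p, and to each called site. Further genes named were chosen after their values were seen. Promoter sequences are from RefSeq (GRCm38.p6), a different build from the data, and no coordinates were converted.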

Additional observations from a re-analysis of the deposited data

How the results depend on the processing

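Limits: 3 libraries stand in each group, batches are unbalanced, the hepatocytes of CWHM-12 2 and DMSO 2 number 267 and 469, and DMSO 2 stands apart. With 3 libraries a group, standard errors of the members' log2 fold changes in hepatocytes ran to 0.83. Copies of the Cyp2c, Cyp2d and Cyp4a families share sequence, and 26 of the 50 members matched share no 50-base window with another gene.

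No alternative called a member in hepatocytes. The count of all genes called there, 0 in the report, was 2 with DESeq2 (Mt1 and Mt2), 6 without the filter on low counts (Bcl6, Fst, Gm15441, Mt1, Mt2 and Osbpl3) and 0 to 2 when each library was left out (2 without DMSO 2). Cyp7b1 turned to 0.10 in clusters 14 and 28 alone, and without DMSO 3 Cyp2c54 turned to -0.35 and Cyp4f15 to -0.11, the lowest values when each library was left out, with 1.90 and 1.44 the highest (both without CWHM-12 1). Cyp2a5 stayed negative in every alternative, from -0.45 to -1.84, as did Cyp2c67, from -0.69 to -1.23, although neither was called in any.

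For zonation, thinning each cell to 1000 UMIs gave 726 called genes, with 17 members higher and 8 lower in pericentral cells. Leaving out each library gave 839 to 1182 genes, 13 to 16 members higher and 11 to 14 lower. Between 23 and 29 of the 29 calls were kept in every alternative, and those lost at least once were Cyp2d40, Cyp4b1, Cyp8b1, Cyp2u1, Cyp2c70, Cyp2d22, Cyp2d10, Cyp4f14, Cyp27a1 and Cyp3a13. The cause was not tested. The interaction called 6 genes with the pericentral list alone, 2 without cluster 37, 2 without the filter and 0 to 1 when each library was left out, and no member in any. The interaction of Cyp2c37 turned to -0.52 without CWHM-12 1 and reached 1.24 without DMSO 3.

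In the other classes, leaving out each library gave 0 to 2 called members: Cyp26b1 and Cyp4b1 in NK cells or ILC1, with log2 fold changes of 5.57 and 2.95 without CWHM-12 3 and 7.18 and 3.32 without DMSO 2, and Cyp4b1 in mesothelial cells at 2.68 without DMSO 1. Site pairs numbered 28 to 43, with 25 to 31 of the 31 kept. Those lost were Cyp4f16 in plasmacytoid dendritic cells (in 7 of 11 settings) and NK cells or ILC1 (4), Cyp2ab1 in NK cells or ILC1 (4), monocytes and macrophages (1) and vascular endothelium (1), Cyp1b1 in stellate cells (3) and Cyp4f18 in neutrophils (1). Clusters 14, 28 and 37, and all alternatives in the other classes, were added after seeing the data.

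Replicate numbers did not pair the libraries: same-numbered libraries correlated in their deviations at 0.0999, -0.0804 and 0.488, and CWHM-12 1, 2 and 3 correlated best with DMSO 2, DMSO 3 and DMSO 3. With the replicate block in place of batch, 0 genes were called in hepatocytes (269 at an unadjusted p under 0.05), and the interaction called 4 genes and 0 members.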

Other observations

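Some members lay in white blood cells at levels above stray hepatocyte RNA without being called higher there than in hepatocytes. Cyp8b1, the bile acid enzyme, averaged 64.3 ± 7.19 CPM in type 1 dendritic cells (SD, n = 5 libraries, 106 UMIs), which is 15.1 times the level expected from hepatocyte RNA and above it in 5 of 5 libraries. Cyp4v3 averaged 77.8 ± 11.6 CPM in Kupffer cells, 16.7 times the level expected from hepatocyte RNA.

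Cyp4f18 was lowest in DMSO 2 in each of its 5 sites. It stood there at 42.3 CPM in neutrophils, 34.8 CPM in B cells, 15.1 CPM in monocytes and macrophages, 5.60 CPM in Kupffer cells and 0 CPM in plasmacytoid dendritic cells, while the other libraries ran from 123 to 165 CPM in B cells and from 51.6 to 172 CPM in monocytes and macrophages. The 0 CPM in plasmacytoid dendritic cells rests on 29 cells.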
